A study of Mus musculus with 31 samples.

Results

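The immediate early genes followed here are 10 genes, Fos, Jun, Junb, Atf3, Egr1, Nr4a1, Myc, Zfp36, Sik1 and Ier2. They were taken from the deposited expression table by their symbol in the array's annotation, and each had 1 probe set, so 10 of the 22180 genes measured are described. Liver RNA came from 31 samples, each read as 1 male C57BL/6 mouse aged 3 to 4 months and sampled in the morning. For each, 100 ng of total RNA was put on an Affymetrix whole-transcript array. Mice of the Fast-Fast-Fast group (n = 7) had been through 2 fasts of 16 h over 8 weeks and were killed after a final 16 h fast. Fast-Fast-Fed mice (n = 8) had the same 2 fasts and were killed fed. Fed-Fed-Fast mice (n = 8) had no earlier fast and were killed after 1 fast of 16 h, and Fed-Fed-Fed mice (n = 8) were never fasted. The labels describe a cohort of 24 mice with free access to food, fewer than the 31 samples, and they name no processing batch. How these numbers relate was not settled. All values are log2 signals, so a difference of 1 is a change by a factor of 2. Whole liver was measured, and fewer cells of a type cannot be told apart from less RNA per cell.

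Immediate early genes are transcribed within minutes of a stimulus without new protein synthesis, because the factors that switch them on are already in the cell and wait for phosphorylation by MAP kinases or protein kinase A. Their mRNAs are short-lived, so their level reports recent signalling. In liver they respond to growth factors, glucagon acting through cyclic AMP and CREB, glucocorticoids, partial hepatectomy and handling of the tissue. The products fall into transcription factors of the AP-1 family (Fos, Jun, Junb, Atf3), other transcription factors (Egr1, Nr4a1, Myc), and proteins that end or limit signals (Zfp36, Sik1), beside the small nuclear protein Ier2.

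The promoters of Nr4a1, Jun, Junb and Zfp36 are shown because Nr4a1 and Jun varied together between mice and Zfp36 and Junb were called after the first fast. The call of Junb was lost when certain single mice were left out, as given below. RefSeq promoters of GRCm38.p6, 250 bases before to 50 bases after the start, were matched for 6 of the 10 genes (Fos, Jun, Junb, Atf3, Nr4a1 and Zfp36), and Egr1, Myc, Sik1 and Ier2 had no match. Nr4a1 lies at chr15:101266596-101266895 on the plus strand, Jun at chr4:95052173-95052472 on the minus strand, Junb at chr8:84978699-84978998 on the minus strand and Zfp36 at chr7:28379179-28379478 on the minus strand. Capitals mark TGACG, the core of the cyclic AMP response element, or CGTCA, which is the same motif on the other strand.
Nr4a1: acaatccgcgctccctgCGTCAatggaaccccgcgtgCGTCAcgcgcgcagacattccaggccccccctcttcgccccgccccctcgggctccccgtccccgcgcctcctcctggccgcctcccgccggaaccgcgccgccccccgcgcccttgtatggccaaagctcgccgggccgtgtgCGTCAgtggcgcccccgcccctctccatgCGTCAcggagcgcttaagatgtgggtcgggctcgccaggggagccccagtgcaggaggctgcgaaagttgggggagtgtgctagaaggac
Jun: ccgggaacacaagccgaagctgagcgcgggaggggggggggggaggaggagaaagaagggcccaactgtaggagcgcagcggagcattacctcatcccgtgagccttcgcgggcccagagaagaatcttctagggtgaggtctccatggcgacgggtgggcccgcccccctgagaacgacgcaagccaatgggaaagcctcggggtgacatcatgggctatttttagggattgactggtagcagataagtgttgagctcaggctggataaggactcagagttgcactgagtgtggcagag
Junb: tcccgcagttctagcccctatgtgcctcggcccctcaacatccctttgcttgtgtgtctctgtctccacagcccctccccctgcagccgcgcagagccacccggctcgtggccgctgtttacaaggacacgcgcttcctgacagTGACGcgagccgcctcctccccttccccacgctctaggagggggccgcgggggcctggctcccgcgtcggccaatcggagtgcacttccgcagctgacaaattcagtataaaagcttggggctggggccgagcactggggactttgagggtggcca
Zfp36: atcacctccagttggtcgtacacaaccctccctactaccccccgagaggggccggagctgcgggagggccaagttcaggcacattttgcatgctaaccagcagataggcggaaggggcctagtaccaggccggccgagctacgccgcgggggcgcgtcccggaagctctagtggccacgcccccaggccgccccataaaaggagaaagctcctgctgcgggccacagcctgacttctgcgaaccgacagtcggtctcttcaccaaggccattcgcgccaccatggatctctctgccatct

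The Nr4a1 promoter held 4 matches to TGACG, all on the minus strand, whose first bases lay 233, 213, 69 and 40 bases upstream of the start. At least 4 matches were found in 76 of 32851 RefSeq promoters of the same length (0.231%). The Junb promoter held 1 match, 106 bases upstream, and the Jun and Zfp36 windows held none. Over both strands, TGACG occurred in 4 of the 6 member promoters and in 20.8% of all promoters. The full element TGACGTCA was in 0 of the 6 and in 1.79% of all, and the AP-1 element TGACTCA was in 0 of the 6 and in 5.2% of all. The CArG box, the binding motif of serum response factor, was found in 1 of the 6, the Zfp36 promoter, and in 1.63% of all. GGGCGG was in 5 of the 6 and 35.7% of all, and TATAAA was in 2 of the 6 and 13.6% of all. GGAA, the core bound by ETS factors, was in 6 of the 6 and in 96.0% of all promoters. These are matches of letters in a short window. The printed promoters were picked from values below, but no match was tested against a value. The cut of at least 4 was set at the count found in Nr4a1.

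One mouse stood apart, and the counts of called members and the values that it moved most are given with and without it. The changes to the third fast do not use its values, but their errors do, through the shared estimate of spread. In Fed-Fed-Fast replicate 5, Nr4a1 read 8.37, against 2.56 to 4.97 (median 3.52) in the other 7 mice of its group. Jun read 8.46 in that mouse against 4.56 to 6.25 in the other 7, and Sik1 read 8.58 against 4.91 to 6.40. Among all 22180 genes ranked by the difference between this mouse and the median of its group, Nr4a1 was rank 1, Jun rank 2 and Sik1 rank 5. Ranks 3 and 4 were Lepr, the leptin receptor, and Socs2, an inhibitor of growth hormone signalling. Atf3 was rank 52 (4.04 in replicate 5, 2.33 to 3.11 in the others), Egr1 rank 82, Junb rank 97, Fos rank 262, Myc rank 481 and Ier2 rank 675. The exception was Zfp36, which read 7.69 in replicate 5 and 7.17 to 8.19 in the others, at rank 17886. The mean over the 10 genes was 6.08 in this mouse and 4.06 to 4.82 in the other 7 of its group.

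Taken as a whole, the array of that mouse lay at the edge of its group. Its mean correlation with the other arrays of its group was 0.9886, the lowest of a group whose highest was 0.9912, and 229 genes lay 1 log2 unit or more from their group, the highest of the 31 arrays, where the next highest count was 189. The genes lowest in it relative to its group were Hsd3b3, Hsd3b5 and Hsd3b2, which code for steroid dehydrogenases, Gbp10, a guanylate-binding protein, and Car3, a carbonic anhydrase. In the other mice of the group the medians of all of these were also below the Fed-Fed-Fed means. Hsd3b5 had a fed mean of 8.48, a median of 3.86 in the others and 1.35 in replicate 5. For Car3 these were 12.45, 10.20 and 8.13. Of the highest genes, Nr4a1, Lepr and Sik1 had medians above their fed means in the others, and Jun and Socs2 below. Markers of Kupffer cells averaged 4.90 in replicate 5, within the 4.76 to 5.86 of its group. Stellate cell and fibroblast markers were at 4.66, the lowest of a group that reached 5.15, and hepatocyte markers at 11.54, the highest of a group that began at 11.42. What set this mouse apart was not tested.

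**Figure D1:**
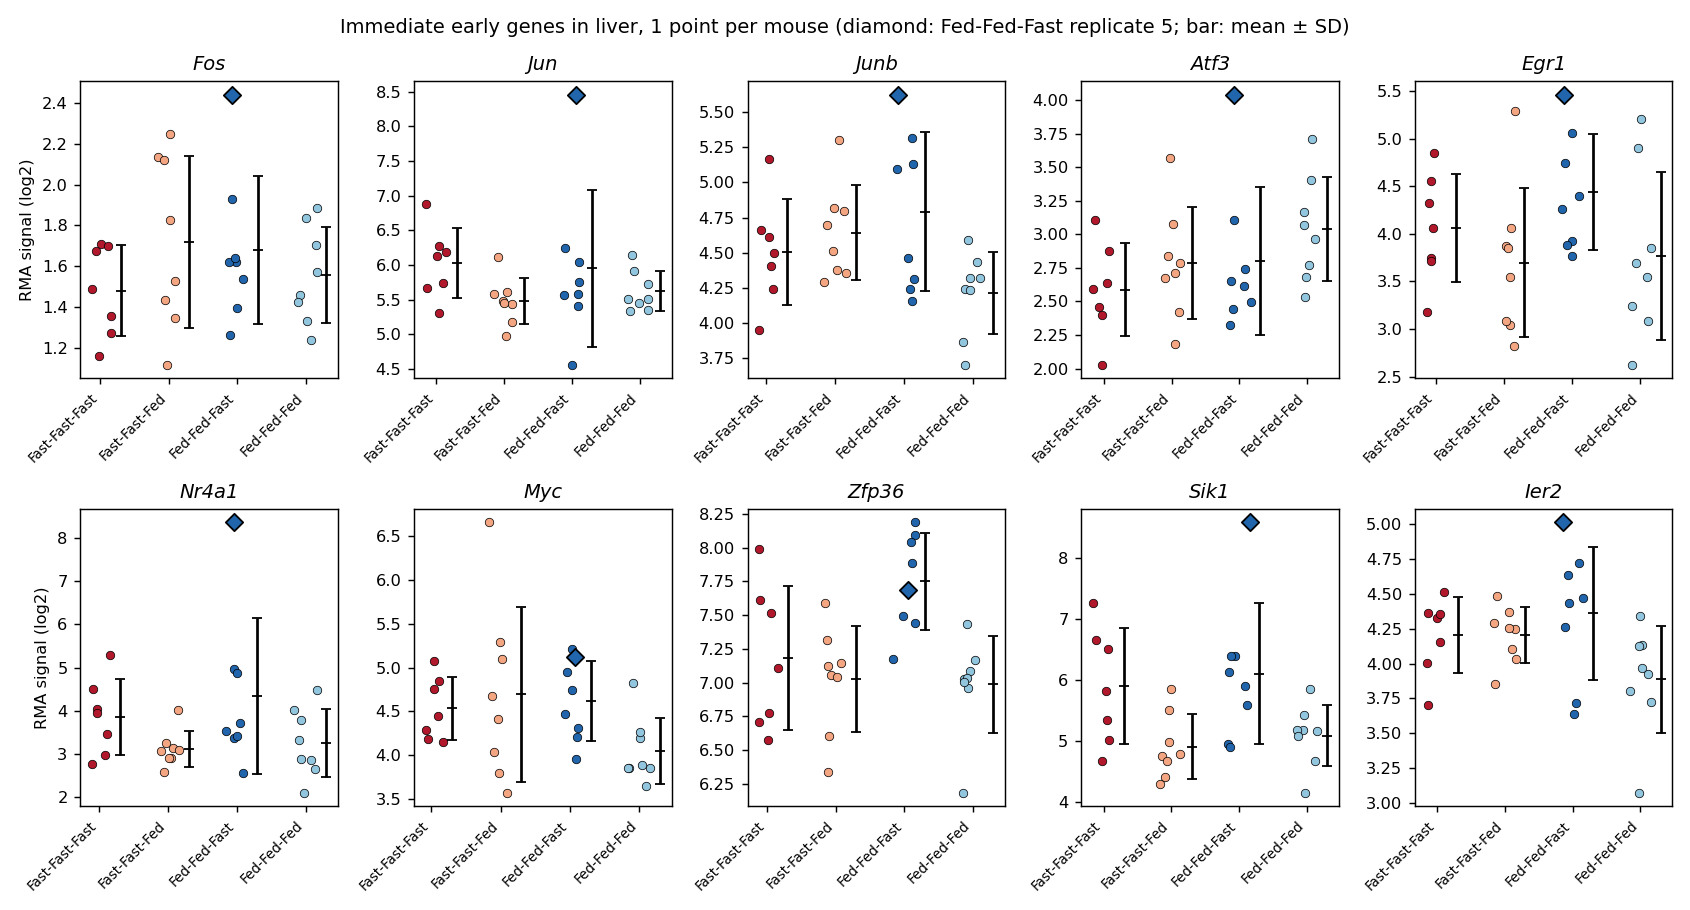
Log2 signal of the 10 immediate early genes in every mouse, with 1 panel per gene, the 4 groups along the horizontal axis and fasted groups left of their fed groups; the bar is the group mean and its error bar 1 SD. Fed-Fed-Fast replicate 5 is marked and sits above its group for Nr4a1 (8.37), Jun (8.46) and Sik1 (8.58), but inside it for Zfp36 (7.69).

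The response to the first fast compares Fed-Fed-Fast with Fed-Fed-Fed mice. Of the 10 genes, 2 rose and 0 fell at a limma adjusted p under 0.05, where the background was 12.5% of all genes in either direction and 6.25% higher. The 2 were Zfp36 and Junb. The log2 change was positive for 9 of the 10, with a median of 0.58 against -0.0036 over all genes. At an unadjusted p under 0.05 there were 6 of the 10, against 21.8% of all genes. Without Fed-Fed-Fast replicate 5 there were 5 of the 10, against 20.4% of all genes. Of these, Zfp36, Junb, Sik1 and Ier2 were higher and Atf3 was lower, while Nr4a1 and Myc no longer passed. The log2 change was then positive for 8 of the 10. In no member did the 2 groups separate fully, which 4.28% of all genes did.

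Zfp36, also called tristetraprolin, binds AU-rich elements in mRNAs, those of cytokines and of other immediate early genes among them, and speeds their decay. Its level in Fed-Fed-Fast mice ran from 7.17 over a median of 7.79 to 8.19, against 6.18, 7.03 and 7.43 in Fed-Fed-Fed mice. Of the 8 fasted mice, 7 lay above the highest fed mouse, so the groups overlapped through 1 fasted mouse. Zfp36 rose 1.70-fold (log2 change 0.77, SE 0.19, 95% interval 0.37 to 1.16, limma adjusted p = 0.00484). Without Fed-Fed-Fast replicate 5 the change was 0.77 (limma adjusted p = 0.00789). Zfp36 was the only member whose call in this comparison held when each of the 31 arrays was left out in turn and under every other setting tried.

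Junb codes for an AP-1 subunit that pairs with Fos proteins and often opposes Jun. In Fed-Fed-Fast mice it ran from 4.16 over a median of 4.78 to 5.63, against 3.70, 4.28 and 4.59 in Fed-Fed-Fed mice. Here 4 of the 8 fasted mice exceeded every fed mouse, and the other fasted mice lay among the fed ones. The rise was 1.49-fold (log2 change 0.58, SE 0.19, limma adjusted p = 0.0389). It was not called once any of 8 mice was left out, namely Fed-Fed-Fast replicates 2, 3, 5 and 7 and Fed-Fed-Fed replicates 1, 3, 7 and 8 (limma adjusted p 0.0521 to 0.114). Without replicate 5 the change was 0.46 (limma adjusted p = 0.114).

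Sik1, a salt-inducible kinase made in answer to cyclic AMP and known to hold back CREB's coactivators, read 4.91, 6.01 and 8.58 (lowest, median, highest) in Fed-Fed-Fast mice, against 4.16, 5.17 and 5.85 in Fed-Fed-Fed mice. Of the fasted mice, 5 of 8 lay above all fed mice. The log2 change was 1.01 (SE 0.38, 95% interval 0.25 to 1.78) and did not pass the threshold (limma adjusted p = 0.0796). Leaving out Fed-Fed-Fast replicate 5 gave 0.66 (limma adjusted p = 0.223).

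Nr4a1, an orphan nuclear receptor (Nur77) induced by glucagon and a regulator of glucose-producing genes in liver, ran from 2.56 over 3.62 to 8.37 in Fed-Fed-Fast mice and from 2.10 over 3.10 to 4.48 in Fed-Fed-Fed mice. Apart from replicate 5, 2 fasted mice were above the fed range. Its log2 change of 1.09 had the widest interval of the 10 (0.06 to 2.12, SE 0.51, limma adjusted p = 0.19), and it was 0.52 without replicate 5 (limma adjusted p = 0.469). Jun, the central AP-1 subunit and a target of the kinase JNK, ran from 4.56 over 5.67 to 8.46 in Fed-Fed-Fast mice and from 5.34 over 5.51 to 6.14 in Fed-Fed-Fed mice. The fasted group spread on both sides of the fed one. The log2 change was 0.33 (SE 0.30, limma adjusted p = 0.614), and -0.024 without replicate 5 (limma adjusted p = 0.973).

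Ier2 came close to the threshold. It ran from 3.64 over 4.45 to 5.01 in Fed-Fed-Fast mice, against 3.08, 3.95 and 4.34 in Fed-Fed-Fed mice, with 5 of the 8 fasted mice above all fed ones. Its log2 change was 0.47 (SE 0.16, limma adjusted p = 0.055), and 0.38 without replicate 5 (limma adjusted p = 0.15). Egr1, a zinc finger factor of the serum response, ran from 3.77 over 4.33 to 5.46 in Fed-Fed-Fast mice and from 2.62 over 3.62 to 5.21 in Fed-Fed-Fed mice. Both groups covered much of the same range, with 1 fasted mouse, replicate 5, above it. The log2 change of Egr1 was 0.67 (SE 0.33, limma adjusted p = 0.241), and 0.52 without replicate 5 (limma adjusted p = 0.431).

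Myc, which drives ribosome building and growth, ran from 3.96 over 4.60 to 5.21 in Fed-Fed-Fast mice and from 3.65 over 3.87 to 4.82 in Fed-Fed-Fed mice, and 3 fasted mice were above the fed range. The log2 change of Myc was 0.57 (SE 0.28, limma adjusted p = 0.229), and 0.50 without replicate 5 (limma adjusted p = 0.362). When only these 2 groups were fitted, Myc was called (limma adjusted p = 0.0465). Fos, the AP-1 partner of Jun, ran from 1.26 over 1.62 to 2.44 in Fed-Fed-Fast mice and from 1.24 over 1.52 to 1.88 in Fed-Fed-Fed mice, a log2 change of 0.12 (limma adjusted p = 0.736) that was 0.016 without replicate 5 (limma adjusted p = 0.974). Atf3, a stress-induced repressor of the ATF/CREB family, was the member with a negative value. It ran from 2.33 over 2.64 to 4.04 in Fed-Fed-Fast mice and from 2.53 over 3.02 to 3.71 in Fed-Fed-Fed mice, a log2 change of -0.24 (limma adjusted p = 0.585) that became -0.41 without replicate 5 (limma adjusted p = 0.151). Fos and Atf3 had means under 3 over all arrays, and no detection call was used to say whether they were above background.

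Without Fed-Fed-Fast replicate 5, the count of called members was 1 (Zfp36), where the background was 11% of all genes, and the median change of the 10 was 0.48. Markers of another cell type moved in the same comparison. With all arrays, 7 of 11 measured Kupffer cell markers fell and 0 rose, where 6.23% of all genes fell, with a median log2 change of -0.64. There were 4 that fell when Fed-Fed-Fast replicate 5 was left out (median -0.60), where 5.5% of all genes fell. Their mean level was 4.76 to 5.86 in Fed-Fed-Fast mice and 5.15 to 6.40 in Fed-Fed-Fed mice. For stellate cells and fibroblasts the count was 3 lower of 10 markers, and for hepatocytes 1 higher and 1 lower of 5, both with and without that array. The log2 signals have no zero that would mark a gene as absent. The part of these cell types in the values of the immediate early genes was not tested.

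**Figure D2:**
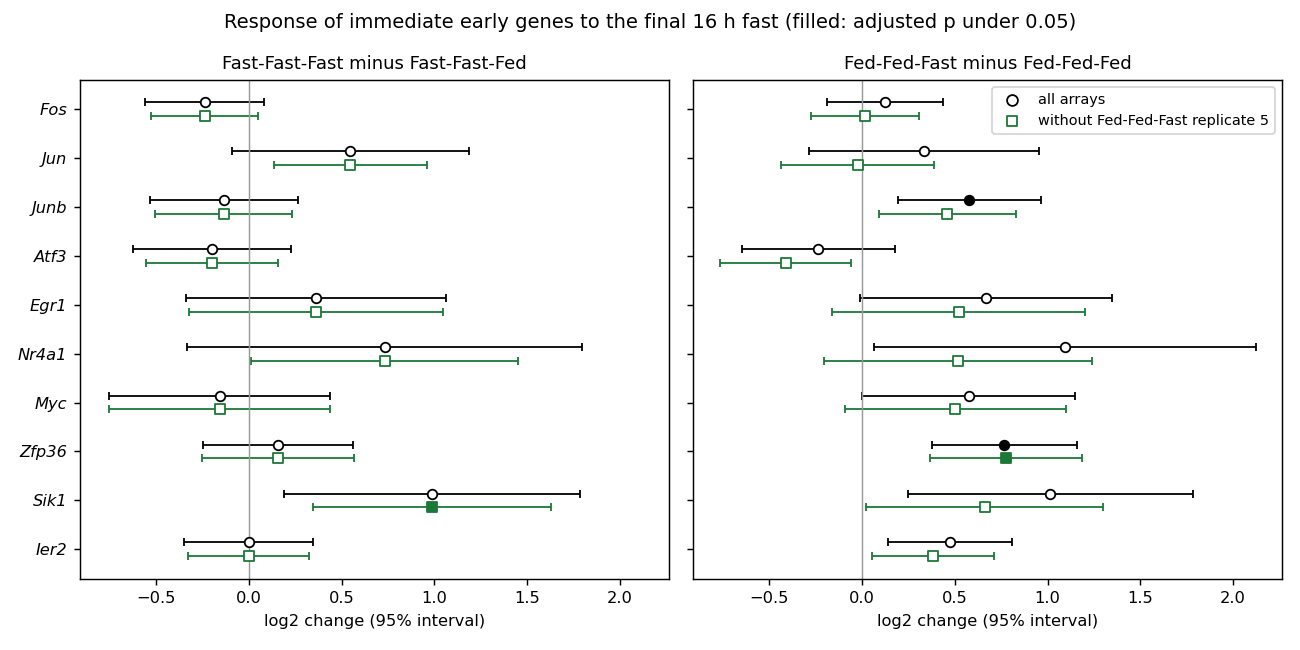
Log2 change of each gene to the final fast with its 95% interval, fasted minus fed, for mice with 2 earlier fasts on the left and with none on the right; circles use all arrays, squares leave out Fed-Fed-Fast replicate 5, and filled symbols have a limma adjusted p under 0.05. With all arrays Zfp36 (0.77) and Junb (0.58) are filled on the right and no symbol on the left, and without replicate 5 the filled symbols are Zfp36 on the right and Sik1 (0.99) on the left.

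The response to the third fast compares Fast-Fast-Fast with Fast-Fast-Fed mice. Of the 10 genes, none was called by limma with all arrays (0 of 10; 1 at an unadjusted p under 0.05), while 11.6% of all genes were called and 21.7% had an unadjusted p under 0.05. An unadjusted p under 0.05 was found for 3 of the 10 (Jun, Nr4a1 and Sik1) without Fed-Fed-Fast replicate 5, against 21.8% of all genes. The log2 change was positive for 5 of the 10 and its median was 0.08. No member's groups separated fully, against 4.37% of all genes.

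Sik1 had the largest change in these mice. Its level was 4.67, 5.82 and 7.26 (lowest, median, highest) in Fast-Fast-Fast mice and 4.30, 4.77 and 5.84 in Fast-Fast-Fed mice, with 3 of the 7 fasted mice above all fed ones. The log2 change was 0.99 (SE 0.39, limma adjusted p = 0.109). It passed the threshold, as 11.8% of all genes did, without Fed-Fed-Fast replicate 5 (limma adjusted p = 0.0343), an array outside both groups that enters through the shared estimate of spread, and without Fast-Fast-Fast replicate 5 (limma adjusted p = 0.049). Jun ran from 5.31 over 6.13 to 6.89 in Fast-Fast-Fast mice and from 4.98 over 5.46 to 6.12 in Fast-Fast-Fed mice. Here 4 of 7 fasted mice were above the fed range, and the log2 change was 0.55 (SE 0.31, limma adjusted p = 0.335, or 0.0798 without Fed-Fed-Fast replicate 5).

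Nr4a1 ran from 2.76 over 3.95 to 5.28 in Fast-Fast-Fast mice and from 2.58 over 3.08 to 4.02 in Fast-Fast-Fed mice, a log2 change of 0.73 (SE 0.52, limma adjusted p = 0.478, or 0.222 without Fed-Fed-Fast replicate 5). The other members had smaller values. Zfp36 ran from 6.57 over 7.11 to 7.99 in Fast-Fast-Fast mice, against 6.33, 7.09 and 7.59 in Fast-Fast-Fed mice, and 2 of 7 fasted mice exceeded the fed range. Its log2 change was 0.16 (95% interval -0.25 to 0.56, limma adjusted p = 0.741). Junb ran from 3.95 over 4.50 to 5.17 in Fast-Fast-Fast mice and from 4.29 over 4.60 to 5.30 in Fast-Fast-Fed mice, so no fasted mouse exceeded the fed range. The log2 change of Junb was -0.14 (95% interval -0.54 to 0.26, limma adjusted p = 0.782).

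Egr1 had a log2 change of 0.36, Myc of -0.16, Fos of -0.24, Atf3 of -0.20 and Ier2 of 0.00, with limma adjusted p from 0.43 to 0.999. One fed mouse stood high for several of these genes. In Fast-Fast-Fed replicate 2, Myc was 6.66, Egr1 5.29, Fos 2.25 and Atf3 3.57, each the highest of its group, whose medians were 4.55, 3.70, 1.68 and 2.75. Without it, the log2 change of Myc to the third fast was 0.12. Kupffer cell markers averaged 4.72 to 5.64 in Fast-Fast-Fast mice and 4.88 to 6.06 in Fast-Fast-Fed mice, and 3 of 11 fell, where 5.52% of all genes fell.

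Averaged over both histories, limma called 2 of the 10 genes, both higher, against 19.1% of all genes in either direction and 9.79% higher. The average uses the same arrays as the 2 responses above, so it is no independent evidence. Sik1 rose 2.00-fold (log2 change 1.00, SE 0.27, limma adjusted p = 0.00648) and Zfp36 rose 1.38-fold (log2 change 0.46, SE 0.14, limma adjusted p = 0.014). The average of Zfp36 combines 0.77 after the first fast and 0.16 (limma adjusted p = 0.741) after the third. Nr4a1 followed with 0.91 (SE 0.36, limma adjusted p = 0.0798), and it was called without Fed-Fed-Fast replicate 1 (limma adjusted p = 0.0354) and when genes with a mean under 3 were left out (0.0445). Egr1 had 0.51 and was called without Fast-Fast-Fed replicate 2 (limma adjusted p = 0.0437). The others had 0.44 (Jun), 0.24 (Ier2), 0.22 (Junb), 0.21 (Myc), -0.057 (Fos) and -0.22 (Atf3). Without Fed-Fed-Fast replicate 5, the same 2 genes were called (Sik1 0.82 and Zfp36 0.47), against 18.1% of all genes.

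Whether earlier fasts changed these genes was asked in fed and in fasted mice and through the interaction. In fed mice limma called 0 of the 10 genes and 0% of all genes, and 2 of the 10 had an unadjusted p under 0.05, as had 5.61% of all genes. These were Myc (log2 change 0.65, Fast-Fast-Fed minus Fed-Fed-Fed, limma adjusted p = 0.856) and Junb (0.43, limma adjusted p = 0.867). Without Fast-Fast-Fed replicate 2 the change of Myc was 0.37 (limma adjusted p = 0.939). Leaving out Fed-Fed-Fast replicate 5, which enters here only through the spread, gave 3 of the 10 an unadjusted p under 0.05, with Ier2 (0.32) added, against 5.72% of all genes. The other members had log2 changes from -0.25 (Atf3) to 0.16 (Fos), with Sik1 at -0.18, Jun and Nr4a1 at -0.14, Egr1 at -0.073 and Zfp36 at 0.040. In fasted mice 0 of the 10 and 0% of all genes were called, and 1 of the 10, against 4.49% of all genes, had an unadjusted p under 0.05. This was Zfp36, at 7.18 ± 0.53 in Fast-Fast-Fast mice and 7.75 ± 0.36 in Fed-Fed-Fast mice (SD, n = 7 and 8), a log2 change of -0.57 (limma adjusted p = 1.00). There were 2 without Fed-Fed-Fast replicate 5, Zfp36 (-0.58) and Jun (0.43, limma adjusted p = 1.00), against 4.66% of all genes. With all arrays Jun was at 0.074 and the others were negative, namely Nr4a1 at -0.50, Egr1 at -0.38, Junb at -0.29, Atf3 at -0.22, Sik1 at -0.21, Fos at -0.20, Ier2 at -0.16 and Myc at -0.085. Of these, Nr4a1 (0.075) and Sik1 (0.14) were positive without that array. All members' groups overlapped in both comparisons, as all but 0.00902% and 0.0361% of all genes did.

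The interaction, which is the response to the final fast with 2 earlier fasts minus that with none, was called for 0 of the 10 genes and 0% of all genes. At an unadjusted p under 0.05 there were 2 of the 10, against 4.61% of all genes. Junb had -0.71 (95% interval -1.27 to -0.16, limma adjusted p = 0.999) and Zfp36 -0.61 (-1.17 to -0.04, limma adjusted p = 0.999). The value was negative for 8 of the 10 genes with all arrays (median -0.36), and 4 were positive without Fed-Fed-Fast replicate 5 (median -0.21). That array turned the sign of Nr4a1, which was -0.36 with it and 0.21 without it, and of Sik1, which was -0.028 with it and 0.33 without it. Junb was -0.60 and Zfp36 -0.62 without it, the same 2 with an unadjusted p under 0.05, against 4.66% of all genes. The other members had -0.73 (Myc), -0.48 (Ier2), -0.36 (Fos), -0.30 (Egr1), 0.038 (Atf3) and 0.21 (Jun) with all arrays. So the 2 genes called after the first fast and not after the third were not shown to respond differently between histories.

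Mice of 1 group differed more in these genes than in most. The pooled within-group SD was 1.11 for Nr4a1, 0.83 for Sik1, 0.73 for Egr1, 0.66 for Jun and 0.61 for Myc, against a median of 0.20 over all genes. Nr4a1 ranked 6th of 22180 genes by this measure. The other 5 had an SD from 0.33 (Fos) to 0.44 (Atf3), and the lowest percentile of the 10 among all genes was 91.15, for Fos. Without Fed-Fed-Fast replicate 5, the SD was 0.75 for Nr4a1, 0.66 for Sik1 and 0.42 for Jun, and the 10 lay between percentiles 85.78 and 99.81. These percentiles are over all genes, whose median mean signal was 2.26, and of the members only Fos (1.61) lay below that. The members were not compared with genes of like signal alone.

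**Figure D3:**
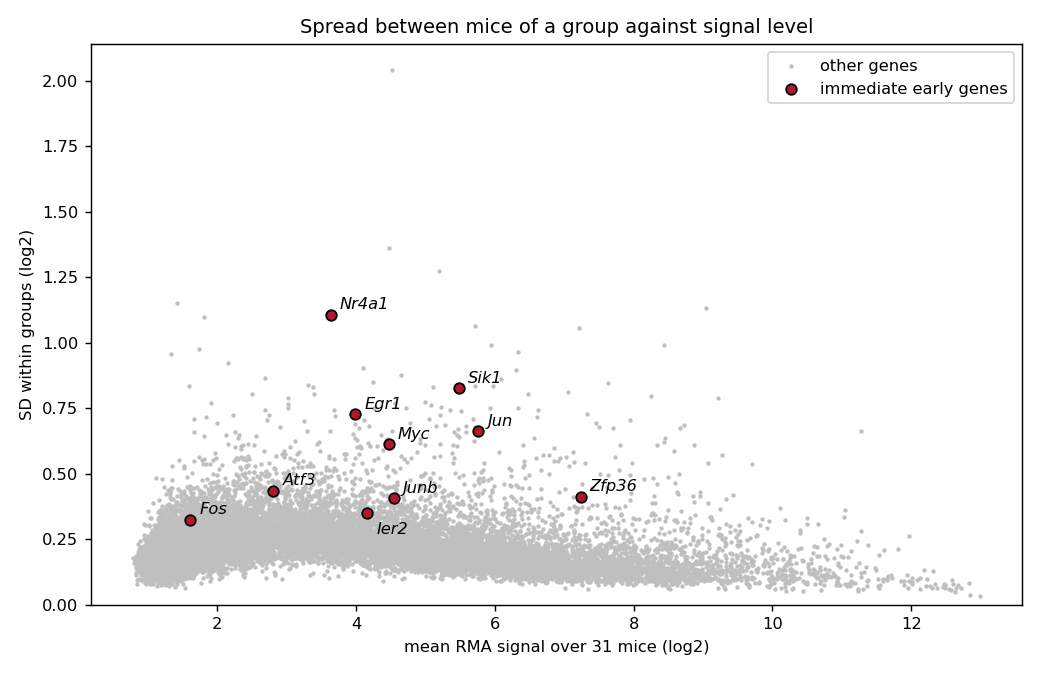
Pooled within-group SD of every gene (vertical axis, log2) against its mean signal over 31 arrays (horizontal axis, log2), with the 10 immediate early genes named. They lie at or above the 91.15 percentile of SD, with Nr4a1 (1.11) highest and Fos (0.33) lowest among them, and the median gene is at 0.20.

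The genes that were high in a mouse were examined as deviations from the group mean, which removes the differences between groups. Of 45 pairs of members, 41 had a positive Pearson's r over 31 arrays (median 0.35) and 7 passed a within-group permutation test at a Benjamini-Hochberg adjusted p under 0.05. Without Fed-Fed-Fast replicate 5, 33 pairs were positive (median 0.12) and 3 passed, all among the 7. The count of called pairs was thus lower without this mouse, and no other mouse was left out of these tests in turn. Pairs of other genes were not counted in the same way. Whether these counts are particular to the members was therefore not tested. The members were also chosen with earlier results of these data known.

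Among the 3 pairs that remained, Jun and Nr4a1 had r = 0.83 (2-sided permutation p = 0.00012, adjusted 0.0036) and Spearman's rho = 0.63 (permutation p = 0.00072, adjusted 0.0162). Without replicate 5, r was 0.60 (permutation p = 0.00176, adjusted 0.0348). With the 2 arrays farthest from the median of Jun left out of all 31, r was 0.55. Within single groups, r was 0.51 in Fast-Fast-Fast, 0.65 in Fast-Fast-Fed, 0.66 in Fed-Fed-Fast without replicate 5 and 0.70 in Fed-Fed-Fed mice.

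Nr4a1 and Sik1, both cyclic AMP-induced genes, had r = 0.78 (permutation p = 0.00016, adjusted 0.0036) and rho = 0.69 (permutation p = 0.0001, adjusted 0.0045), and r = 0.60 without replicate 5 (permutation p = 0.00153, adjusted 0.0348). Leaving out the 2 arrays farthest in Nr4a1 gave 0.58. By group, r was 0.78 in Fast-Fast-Fast, 0.79 in Fast-Fast-Fed and 0.81 in Fed-Fed-Fed mice, but 0.15 in Fed-Fed-Fast mice without replicate 5. Egr1 and Zfp36 had r = 0.51 (permutation p = 0.00394, adjusted 0.0355) and rho = 0.57 (permutation p = 0.0015, adjusted 0.0169). This pair did not rest on replicate 5: without it, r was 0.54 (permutation p = 0.00232, adjusted 0.0348), and by group it ran from 0.40 in Fed-Fed-Fast with replicate 5 to 0.72 in Fed-Fed-Fed mice.

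By Pearson's r the other 4 pairs passed with all arrays only. Junb and Egr1 had r = 0.54 (permutation adjusted p = 0.0157), and 0.48 without replicate 5 (0.0598). By rank this pair passed both ways, with rho = 0.57 (permutation adjusted p = 0.0169), and 0.54 without that array (0.0259). Jun and Sik1 had r = 0.74 (permutation adjusted p = 0.0105), and 0.53 without it (0.0637). Their rho was 0.58 (permutation adjusted p = 0.0177), and 0.52 without it (0.0714). Egr1 and Ier2 had r = 0.50 (permutation adjusted p = 0.0394), and 0.44 without it (0.107), with rho = 0.37 (permutation adjusted p = 0.264). Fos and Atf3 had r = 0.53 (permutation adjusted p = 0.0435), and 0.36 without replicate 5 (0.435), with rho = 0.36 (permutation adjusted p = 0.31). Their r was 0.26 once the 2 arrays farthest in Fos were left out. That cut narrows the range of Fos itself, so the drop alone cannot say what the relation rests on.

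**Figure D4:**
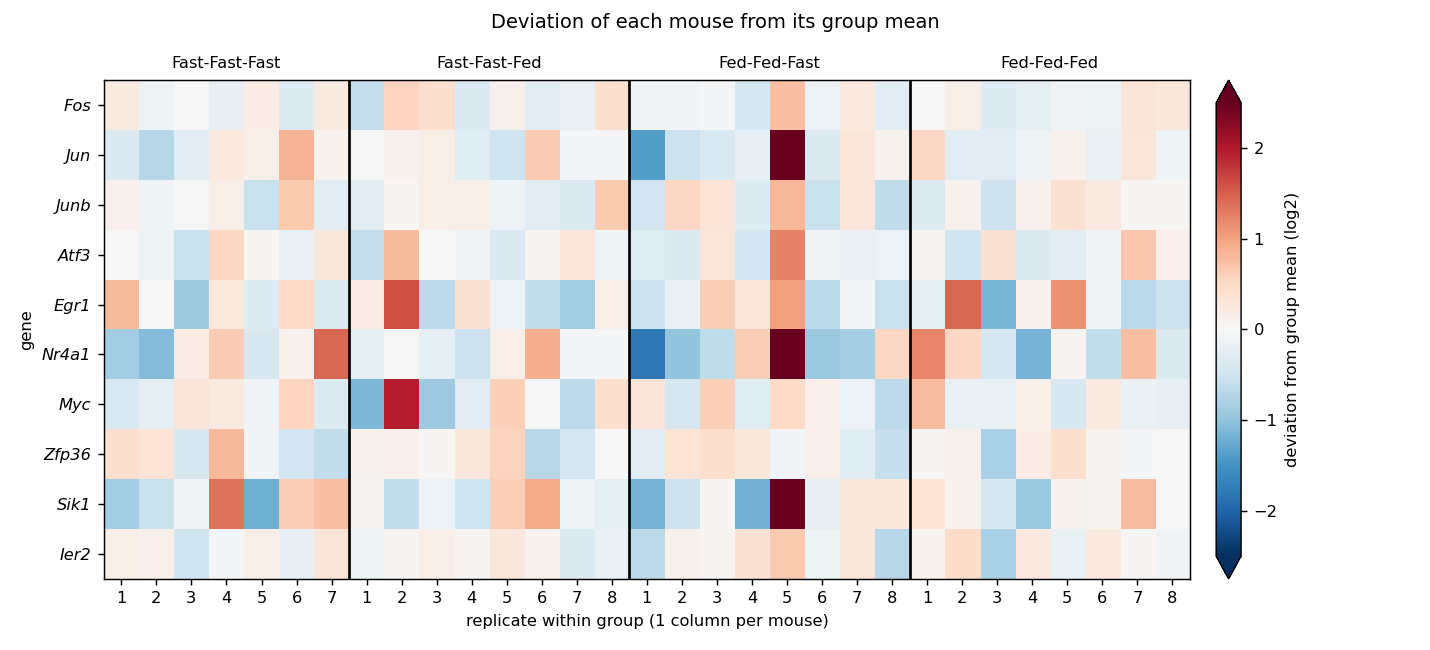
Deviation of each mouse (columns, by group, fasted groups left of their fed groups) from its group mean for each gene (rows), in log2 units on a colour scale that saturates at 2.5 in either direction. Fed-Fed-Fast replicate 5 shows positive deviations for all genes but Zfp36, and Fast-Fast-Fed replicate 2 shows its largest for Myc, Egr1, Atf3 and Fos and a negative one for Sik1.

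**Figure D5:**
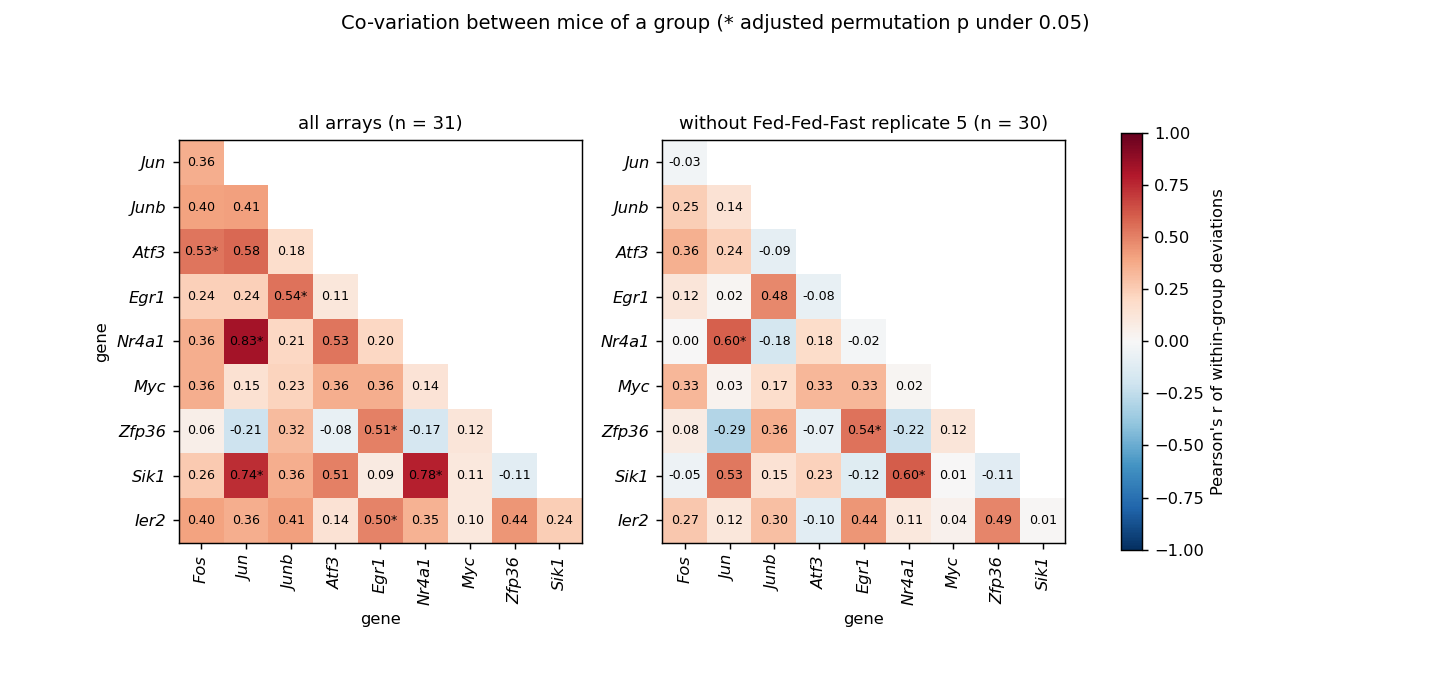
Pearson's r of within-group deviations for the 45 pairs of genes, over all 31 arrays on one side and over 30 arrays without Fed-Fed-Fast replicate 5 on the other, with an asterisk at a permutation p under 0.05 after Benjamini-Hochberg adjustment. The pairs Jun with Nr4a1 (0.83 and 0.60), Nr4a1 with Sik1 (0.78 and 0.60) and Egr1 with Zfp36 (0.51 and 0.54) carry an asterisk in both.

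Over all genes, those most like the mean deviation of the 10 members across 31 arrays, by Pearson's r given here as a description, were Rgs1 (0.83), a regulator of G protein signalling, and Ifrd1 (0.81). Btg2, an antiproliferative gene that is itself an immediate early gene, had 0.73 and Lepr 0.70. The most opposed were Cyb5a (-0.83), cytochrome b5, Saa4 (-0.82), a constitutive serum amyloid A, and Hsd3b3 (-0.80). Of the 10 most like genes, 0 were again among the 10 when Fed-Fed-Fast replicate 5 was left out, and Rgs1 then had 0.57. Of the 3 most opposed, 1 was again in place, Cyb5a (-0.68).

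Close relatives of the members in the same families were measured for 17 genes, of which 2 rose and 0 fell after the first fast, and 0 rose and 0 fell after the third. Over all genes 6.25% rose and 6.23% fell after the first fast, and 6.06% and 5.52% after the third. The 2 were Fosl2, an AP-1 subunit of the Fos family, with a log2 change of 0.53 (limma adjusted p = 0.00293), and Sik2, a kinase of the Sik1 family, with 0.36 (limma adjusted p = 0.00125), and both counts were the same without Fed-Fed-Fast replicate 5. The median change of these relatives was 0.08 after the first fast. With 1 array left out, 0 to 2 rose and 0 to 1 fell after the third.

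Other immediate early genes moved in both directions. Of 38 measured, 11 rose and 3 fell after the first fast, where 6.25% of all genes rose and 6.23% fell, and 7 rose and 4 fell without Fed-Fed-Fast replicate 5, where 5.49% of all genes rose and 5.5% fell. After the third fast 8 rose and 5 fell, where 6.06% of all genes rose and 5.52% fell. Gadd45b, a stress sensor, rose by a log2 change of 2.99 after the first fast (SE 0.18, limma adjusted p = 1.63e-14) and of 2.88 after the third (limma adjusted p = 1.36e-13). Per1, a clock gene that glucocorticoids induce, rose by 2.01 and 1.68 (limma adjusted p = 2.62e-05 and 0.000594). Pim3, a kinase, rose by 1.38 and 1.00. The median change of the list was 0.14 after the first fast and -0.07 after the third.

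Genes of the CREB and glucocorticoid fasting response form a list of 16, which shares Gadd45b, Per1, Crem and Sgk1 with the previous one. It also holds the members Sik1 and Nr4a1 and their relative Nr4a3, so these lists are not independent. Of the 16, 10 rose and 1 fell after the first fast (median log2 change 1.05), and 9 rose and 0 fell after the third (median 0.86). Over all genes 6.25% and 6.06% rose. The counts without Fed-Fed-Fast replicate 5 were 9 higher and 1 lower after the first fast (median 0.76), and 10 higher and 0 lower after the third. No gene fell after the first fast once any single one of 9 arrays was left out, Fed-Fed-Fast replicates 1, 2, 4, 6 and 7 and Fed-Fed-Fed replicates 1, 3, 4 and 5. Igfbp1, which codes for a binding protein of insulin-like growth factors, rose by 2.97 and 2.93, and Cdkn1a, the cell cycle inhibitor p21, by 2.84 and 3.31.

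Of 17 brakes on MAP kinase and growth factor signalling, 2 rose and 3 fell after the first fast, and 0 rose and 4 fell after the third. This list shares Dusp1, Errfi1 and Socs3 with the other immediate early genes, so Errfi1 and Dusp1 are counted in both. Over all genes 6.25% rose and 6.23% fell after the first fast, and 6.06% and 5.52% after the third. Errfi1, an inhibitor of the EGF receptor, rose by 0.86 (limma adjusted p = 9.05e-05), and Dusp1, a MAP kinase phosphatase that is an immediate early gene itself, by 0.58 (limma adjusted p = 0.0298). Dusp1 was not called without Fed-Fed-Fast replicate 5 (0.45, limma adjusted p = 0.0919). Spry4 fell by 0.57 after the first fast and by 0.60 after the third. After the third fast 0 to 1 rose with 1 array left out. The risers after the first fast numbered 1 when any single one of Fed-Fed-Fast replicates 5 and 6 and Fed-Fed-Fed replicates 3 and 8 was left out. The fallers after the first fast were 1 without Fed-Fed-Fed replicate 4, and those after the third were 2 when Fast-Fast-Fast replicate 2, 4 or 6 was left out.

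Among 24 upstream kinases and factors, 2 rose and 1 fell after the first fast, and 3 rose and 0 fell after the third. Over all genes 6.25% rose and 6.23% fell after the first fast, and 6.06% and 5.52% after the third, so counts of 0 to 3 in a list of this length are near the background. With 1 array left out, 1 to 3 rose and 1 to 3 fell after the first fast, and 0 to 1 fell after the third. Leaving out Fed-Fed-Fast replicate 5 gave 1 higher and 1 lower after the first fast. Egfr, the EGF receptor, fell by 0.99 on the log2 scale after the first fast (limma adjusted p = 0.000326), and Mapk8, the kinase JNK1 that phosphorylates Jun, rose by 0.47 after the third (limma adjusted p = 0.00153). Among 15 partners of AP-1 proteins, 2 rose and 4 fell after the first fast, and 2 rose and 1 fell after the third. Cebpb rose by 1.11 and 0.61 and Atf5 by 1.07 and 1.15, while Atf4, the factor of the integrated stress response, fell by 0.46 and by 0.39. The counts of these partners were the same without Fed-Fed-Fast replicate 5, and without Fast-Fast-Fast replicate 4 the risers after the third fast were 1. Of 25 genes of the Myc network and ribosome building, 3 rose and 2 fell after the first fast and 4 rose and 2 fell after the third. Mlxipl, the carbohydrate-responsive factor ChREBP, fell by 1.00 and by 0.99, and Odc1, a Myc target that makes polyamines, rose by 0.63 and 0.46. Without Fast-Fast-Fast replicate 7 or Fast-Fast-Fed replicate 2 or 3, the fallers after the third fast were 1. With Fed-Fed-Fast replicate 5 left out, 3 rose and 2 fell after the first fast and 5 rose and 2 fell after the third. None of these lists had a called gene between histories or in the interaction, where limma called 0% of all genes.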

How the data were processed

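The authors deposited log2 values made with RMA, per the submitters' processing notes, in a version not given in the sources used here. RMA removes background, gives all arrays the same distribution and fits 1 value per probe set, which narrows differences of dim genes. Array medians were 2.01 to 2.07. Of 41345 probe sets, 23521 had 1 gene symbol in the platform's annotation, 1814 had several and 16010 had none. A gene was represented by its probe set with the highest mean, which gave 22180 genes. All 4 groups were fitted as group means with limma 3.58.1 in R 4.3.3, with 6 comparisons, each adjusted by Benjamini-Hochberg over all genes, 2-sided, at 0.05. Pairs of members were tested with 1e+05 permutations within groups, adjusted over 45 pairs. Each sample was read as 1 mouse. The number of arrays limits the precision, and no detection call was used. The scripts were tested on simulated data.

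The members and lists were chosen with earlier results of these data known. The rule names all 10 members in every comparison, and each has its value there. Other named genes come from the 4 called genes with the largest changes in each list and comparison, the 10 most and 3 least like genes, and the 5 highest and 5 lowest genes of Fed-Fed-Fast replicate 5. Of these, only some are printed. Whether replicate numbers pair the samples across groups could not be decided from the values. After removal of group means, 3 of 45 pairs of same-numbered arrays correlated above 0.1 (median 0.0328). Among pairs with different numbers it was 6 of 315 (median -0.00302). The main fits did not use the numbers. Figures were drawn with matplotlib 3.10.9.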

Additional observations from a re-analysis of the deposited data

Results flagged for a closer look

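For 40 combinations of a gene and a group, the gap of an end mouse to its nearest neighbour was divided by the range of the group. In 6 of the 40, this ratio passed Dixon's 95% value, which chance passes in about 5% of independent groups. The count of 6 cannot be set against that share, because members varied together in the same mice. The members were also chosen with earlier results of these data known, so the count is a description only. Of the 6, 4 were in Fed-Fed-Fast replicate 5, for Nr4a1 (8.37, nearest 4.97), Sik1 (8.58, nearest 6.40), Jun (8.46, nearest 6.25) and Atf3 (4.04, nearest 3.11). The others were Nr4a1 in Fast-Fast-Fed replicate 6 (4.02, nearest 3.26) and Zfp36 in Fed-Fed-Fed replicate 3, on the low side (6.18, nearest 6.96).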

How the results depend on the processing

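For the first fast, the 2 called members were 4 when genes with a mean under 3 were left out before the test (Junb, Zfp36, Sik1 and Ier2; 9566 genes tested), 1 when every probe set was tested (Zfp36), and 1 to 4 with 1 array left out. With 1 array left out, Sik1 was called without Fed-Fed-Fast replicate 1 or 4, and Ier2 without Fed-Fed-Fast replicate 1 or 8, Fed-Fed-Fed replicate 2, 4 or 6 or Fast-Fast-Fast replicate 3. Ier2 was also called with array weights (adjusted p = 0.0399). With only the groups compared, Myc was called (0.0465) and Junb was not (0.0649). With the replicate block, 2 members were called (Zfp36 and Ier2), and Junb was not (adjusted p = 0.0646). Whether the numbers pair the samples was not settled. For the third fast the count was 0 to 1 with 1 array left out, and averaged over histories 2 to 3, with Nr4a1 or Egr1 as the third. Nr4a1 was also called there without dim genes (adjusted p = 0.0445). It was 0 between histories and for the interaction under all of these. Over all genes, 1 gene was called in fed mice without Fast-Fast-Fed replicate 1 or Fed-Fed-Fed replicate 4, 1 in fasted mice without Fast-Fast-Fast replicate 6, and 1 in the interaction without that array or without Fed-Fed-Fast replicate 3, against 0 with all arrays. Pairs of members called were 7 with all arrays, 3 without Fed-Fed-Fast replicate 5 and 5 by Spearman's rank correlation, and 4 by rank without that array, a setting chosen after seeing the data, as were the list counts under other settings.

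Some small uncalled log2 changes reversed with 1 array left out. After the first fast Jun ran from -0.024 to 0.53. After the third fast Ier2 ran from -0.054 to 0.081 and Myc from -0.32 to 0.12. Between histories in fed mice, Egr1 ran from -0.30 to 0.13, Nr4a1 from -0.30 to 0.036 and Zfp36 from -0.075 to 0.14. In fasted mice Jun ran from -0.13 to 0.43, Myc from -0.18 to 0.0002, Nr4a1 from -0.75 to 0.075 and Sik1 from -0.44 to 0.14. In the interaction Atf3 ran from -0.058 to 0.21, Nr4a1 from -0.62 to 0.21 and Sik1 from -0.26 to 0.33. The causes were not tested. None reversed under the other settings. There, 559 values of members kept direction and call, 3 lost the call and 6 gained it. The number of mice and the signal over background, which is not known here for Fos and Atf3 at means under 3, limit these values.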
